A study of Homo sapiens with 20 samples.

Results

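All loops listed on human chromosomes 13, 18 and 21 were described in 4 glioblastoma cell lines profiled by Hi-C, an assay that ligates and sequences DNA segments lying close together in the nucleus. A loop is given as an anchor pair, 2 segments of about 5 kb on the same chromosome, with a strength. Membership rested on chromosome and on a place among the 300000 strongest anchor pairs of a line. Strength thus decided which anchor pairs could be members, and many had a place in 1 line only. Of the 300000 strongest anchor pairs of each line, 15748 lay on these chromosomes in H4, 14062 in H4 88-1, then 16194 in 42MGBA and 16937 in its derivative 42MGBA 53-1. Over the 4 lists these were 29683 different anchor pairs of 572000, of which 4505 lay on chromosome 13, 13567 on chromosome 18 and 11611 on chromosome 21.

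H4 and 42MGBA are human glioblastoma lines that each carry a naturally occurring truncating mutation of STAG2, a frameshift in H4 and a stop codon in 42MGBA. In the derivative H4 88-1, and likewise in 42MGBA 53-1, gene editing has restored the mutant allele, and both carry the label STAG2 wild-type, and the lines received no other treatment that the labels name. The study asked what correction of STAG2 does to genome folding, and so each derivative was compared with its own parent. Whether a derivative grew from 1 clone is not given in the sources used here. The 2 Hi-C replicates of each line were pooled by the authors into 1 list, so every value below stands for 1 line, has no replicate error and supports no test. Strength in the lists ran upward from 4.14 (H4), 4.44 (H4 88-1), 4.49 (42MGBA) and 4.28 (42MGBA 53-1), each the lowest listed value. An anchor pair missing from 1 list of a pair of lines was given that lowest value. These lowest values differ within each pair of lines. An anchor pair near them could thus have a ratio that favours the line lacking it. Some signs below changed among anchor pairs listed in both lines, as given for CDH20 and IRS2.

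Cohesin is a ring-shaped complex that extrudes chromatin into loops, and STAG1 and STAG2 are alternative subunits of it. The DNA-binding protein CTCF halts extrusion most readily where its sites at both loop anchors point toward each other, an arrangement called convergent. Chromosomes 13, 18 and 21 are the human autosomes that survive to birth as trisomies, and long gene deserts separate their genes, many of which encode adhesion molecules, collagens and developmental transcription factors.

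The gene-poor label was checked against the GENCODE annotation. Chromosome 13 had 3.37 protein-coding genes per Mb of sequenced bases and chromosome 18 had 3.56, the lowest and the next lowest of the 22 autosomes, against 7.16 over all autosomes. Chromosome 21 had 6.52, rank 12 of 22, so the label held for chromosome 21 only over its whole length, where unsequenced bases lower the figure to 4.76 and the rank to 19.

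The CTCF core motif, CCA, any 2 bases, AG, any 2 bases, GGC, was searched for on both strands in every anchor. The sites below are those of the named loops with a match in both anchors, shown for their orientation. Named loops without such a match are left out, among them the SKOR2 loop of chromosome 18 that differed 2.61-fold. The sites thus describe a subset and not the loops that differed most. Each is printed with 14 bases on either side, on the strand that holds the motif, in the hg19 build, with the motif in capitals. The ADAMTS1 desert loop has its left site at chr21:28253995-28254034 on the plus strand and its right site at chr21:28937176-28937215 on the minus strand. The RUNX1 loop has them at chr21:36263278-36263317 (plus) and chr21:36772909-36772948 (minus). The COL18A1 loop has a left site at chr21:46712538-46712577 (plus) and right sites at chr21:46861398-46861437 and chr21:46861616-46861655 (both minus). The motif matches of these 3 loops of chromosome 21 were thus convergent. No CTCF binding data were used, and the motif also occurred in 12.3% of 5 kb windows tiling chromosome 21. The SPATA13 loop of chromosome 13 has both sites on the minus strand, at chr13:24589731-24589770 and chr13:24794426-24794465.
ADAMTS1 desert left: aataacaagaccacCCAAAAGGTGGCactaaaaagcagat
ADAMTS1 desert right: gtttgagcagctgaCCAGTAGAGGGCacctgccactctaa
RUNX1 left: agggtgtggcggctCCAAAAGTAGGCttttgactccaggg
RUNX1 right: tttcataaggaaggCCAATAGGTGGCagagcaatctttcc
COL18A1 left: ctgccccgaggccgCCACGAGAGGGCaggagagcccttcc
COL18A1 right, first: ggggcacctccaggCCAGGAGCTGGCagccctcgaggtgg
COL18A1 right, last: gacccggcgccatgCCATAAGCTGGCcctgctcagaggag
SPATA13 left: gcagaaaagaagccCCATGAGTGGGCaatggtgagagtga
SPATA13 right: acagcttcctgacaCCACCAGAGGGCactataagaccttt

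The 3 chromosomes were populated very unequally. Chromosome 13 held 2718 anchor pairs in H4, 2497 in H4 88-1, then 1925 in 42MGBA and 1738 in 42MGBA 53-1. Chromosome 18 held 7528, 7439, 6279 and 7268 in the same order, and chromosome 21 held 5502, 4126, 7990 and 7931. Per Mb of sequence, chromosome 13 had 28.4, 26.1, 20.1 and 18.2 anchor pairs, the fewest of all 22 autosomes in every line. Chromosome 18 had 100.8, 99.6, 84.1 and 97.4, close to the mean of 110.8 to 111.5 over the autosomes. Chromosome 21 was dense, with 156.7 and 117.5 in the H4 pair and 227.6 and 225.9 in the 42MGBA pair, rank 3 in H4, 9 in H4 88-1 and 2 in both 42MGBA lines. Among the 10000 strongest anchor pairs of a list, chromosome 13 supplied 55 (H4), 30 (H4 88-1), 8 (42MGBA) and 1 (42MGBA 53-1), while chromosome 21 supplied 181, 94, 373 and 289.

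**Figure D1:**
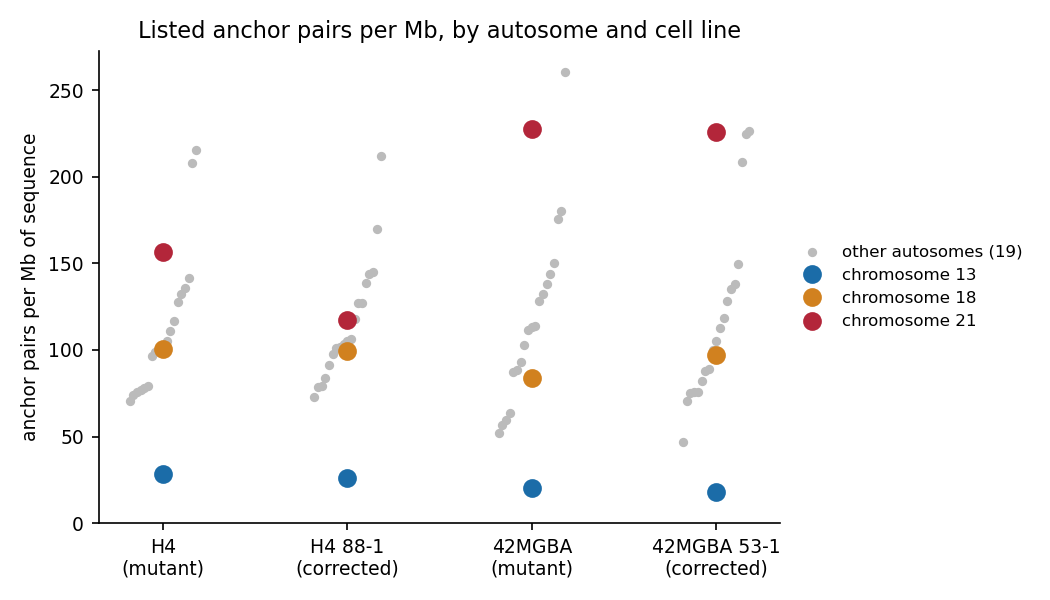
Anchor pairs per Mb of sequenced bases (vertical axis) for each autosome in each of the 4 lines, with the 19 other autosomes as small grey points spread sideways by rank. Chromosome 13 lies below every other autosome at 18.2 to 28.4 per Mb, chromosome 18 lies among them, and chromosome 21 reaches 227.6 per Mb in 42MGBA.

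Anchor pairs were concentrated in a few stretches. On chromosome 21 the 5 Mb window from 35 to 40 Mb, which holds RUNX1 and ERG, had 3583 of the 11611 anchor pairs, or 30.9%, and the 3 fullest windows held 70.4%. On chromosome 18 the fullest window ran from 10 to 15 Mb with 17.3%, and on chromosome 13 from 40 to 45 Mb with 18.5%. Across windows the number of anchor pairs followed the number of coding genes, with a Spearman coefficient of 0.79 over 21 windows of chromosome 13, 0.54 over 16 of chromosome 18 and 0.52 over 8 of chromosome 21. This is a description over neighbouring windows of the same 4 lists.

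The longest stretches without any anchor in any list were looked for after the values had been seen. On chromosome 13 they ran over 8.34 Mb at chr13:52704769-61039525, with 16 coding genes including the protocadherins PCDH8 and PCDH17, and over 7.88 Mb at chr13:87935880-95811289, with the heparan sulfate proteoglycan genes GPC5 and GPC6 and the neural factor SOX21. PCDH20 lay alone among named genes of another stretch of 6.05 Mb, and SLITRK1, a neuronal adhesion gene, in a stretch of 4.48 Mb. On chromosome 18 such stretches held CELF4 (5.26 Mb), the netrin receptor DCC (2.49 Mb) and the cadherin CDH2 (2.26 Mb). On chromosome 21 the longest was 3.05 Mb and held the intestinal protease gene TMPRSS15. Anchors covered 8.37% of the sequence of chromosome 13, 20.999% of chromosome 18 and 29.9% of chromosome 21, against 22.9% over all autosomes.

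Loop size is the number of bases between the anchors. On chromosome 13 the median was 389 kb in H4, 340 kb in H4 88-1, 296 kb in 42MGBA and 199 kb in 42MGBA 53-1. On chromosome 18 it was 330, 312, 293 and 254 kb, and on chromosome 21 it was 364, 253, 368 and 291 kb. The other autosomes together had 344, 308, 301 and 252 kb. Loops were thus larger in the STAG2-mutant line of both pairs on all 3 chromosomes, as on 20 of the 22 autosomes in the H4 pair and on all 22 in the 42MGBA pair. The gap between the medians was among the largest on chromosome 21 in both pairs and on chromosome 13 in the 42MGBA pair. On chromosome 21 the median was 110.5 kb larger in H4 than in H4 88-1, the largest difference of any autosome, and 76.7 kb larger in 42MGBA than in 42MGBA 53-1, rank 3. On chromosome 13 the gap was 49.0 kb, rank 5, and 97.3 kb, the largest. Of the 1738 anchor pairs of chromosome 13 in 42MGBA 53-1, 123 joined adjacent anchors, against 50 of 1925 in 42MGBA. Chromosome 18, at 17.8 and 39.4 kb, ranked 16 and 15, below the autosomal medians of 25.8 and 49.996 kb.

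**Figure D2:**
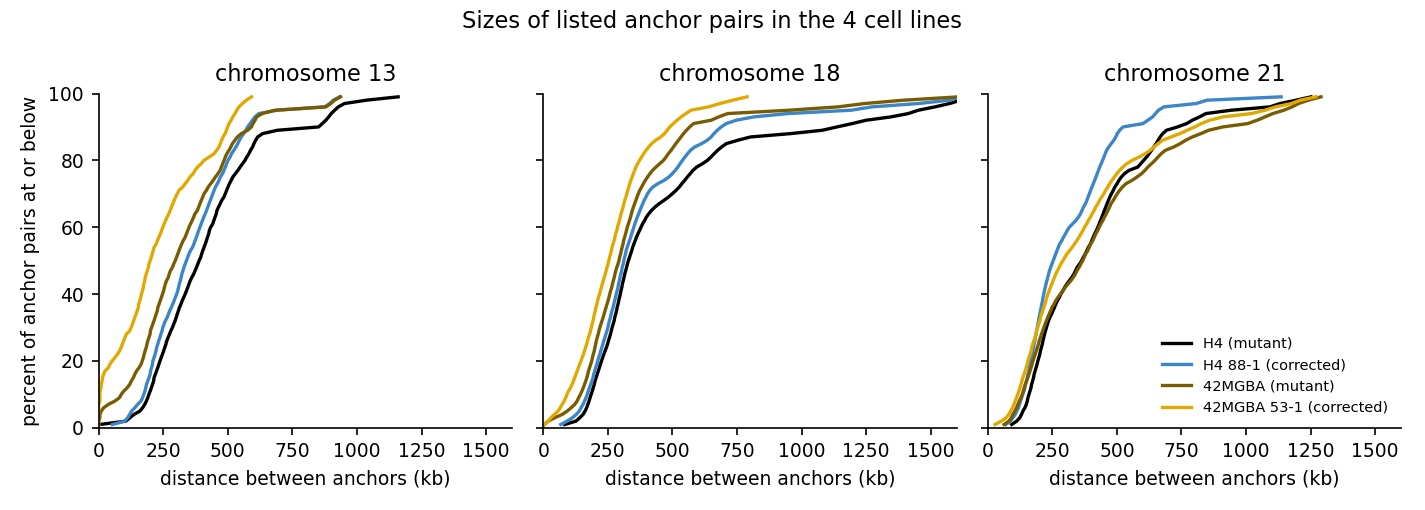
Percent of anchor pairs (vertical axis) whose anchors lie at or below a given distance in kb (horizontal axis), for each of the 4 lines on chromosomes 13, 18 and 21, drawn from the first to the 99th percentile, of which the last of the H4 lines on chromosome 18 run off the axis. The 42MGBA 53-1 curve of chromosome 13, with a median of 199 kb, and the H4 88-1 curve of chromosome 21, with a median of 253 kb, lie farthest to the left of their STAG2-mutant parents.

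Long loops were fewer after correction. Anchor pairs of 1000 kb and over numbered 891 on chromosome 18 in H4, or 11.8% of its pairs, and 426 in H4 88-1, or 5.73%. Between 42MGBA and 42MGBA 53-1 the number went from 295 to 51. On chromosome 21 they numbered 273 in H4 and 71 in H4 88-1, and 721 and 485 in the 42MGBA pair. On chromosome 13 there were 81, 17, 16 and 1. The other autosomes had the same direction, with 4.76% in H4 and 2.67% in H4 88-1, and 3.17% and 2.00% in the 42MGBA lines. At the other end, anchor pairs under 100 kb made up 26.6% of chromosome 13 in 42MGBA 53-1 against 11.2% in 42MGBA, while in the H4 pair they made up 1.88% and 1.91%.

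The log2 ratio of strength, corrected over mutant, was taken over the union of both lists of a pair. In the H4 pair its median was 0.05 on chromosome 13 (3402 anchor pairs), 0.09 on chromosome 18 (9666) and -0.02 on chromosome 21 (6381), against 0.10 on the other autosomes. The chromosome 21 median was the lowest and the chromosome 13 median the third lowest of the autosomes. In the 42MGBA pair the medians were -0.11 (2663 anchor pairs), -0.04 (9099) and -0.11 (10147), against -0.08 on the other autosomes, ranks 6, 15 and 7 from the lowest. The spread within a chromosome was far wider than these shifts, with a standard deviation over anchor pairs of 0.23 to 0.25 in both pairs. The whole genome was shifted by 0.09 in the H4 pair and by -0.08 in the 42MGBA pair. Relative to that shift, chromosome 13 stood at -0.05 and -0.03, chromosome 18 at -3.1e-04 and 0.04, and chromosome 21 at -0.11 and -0.03. Thus the sign on chromosome 13 in the H4 pair and on chromosome 18 in both pairs depended on whether the genome-wide shift was taken off, with chromosome 18 at the genome's own median in the H4 pair.

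**Figure D3:**
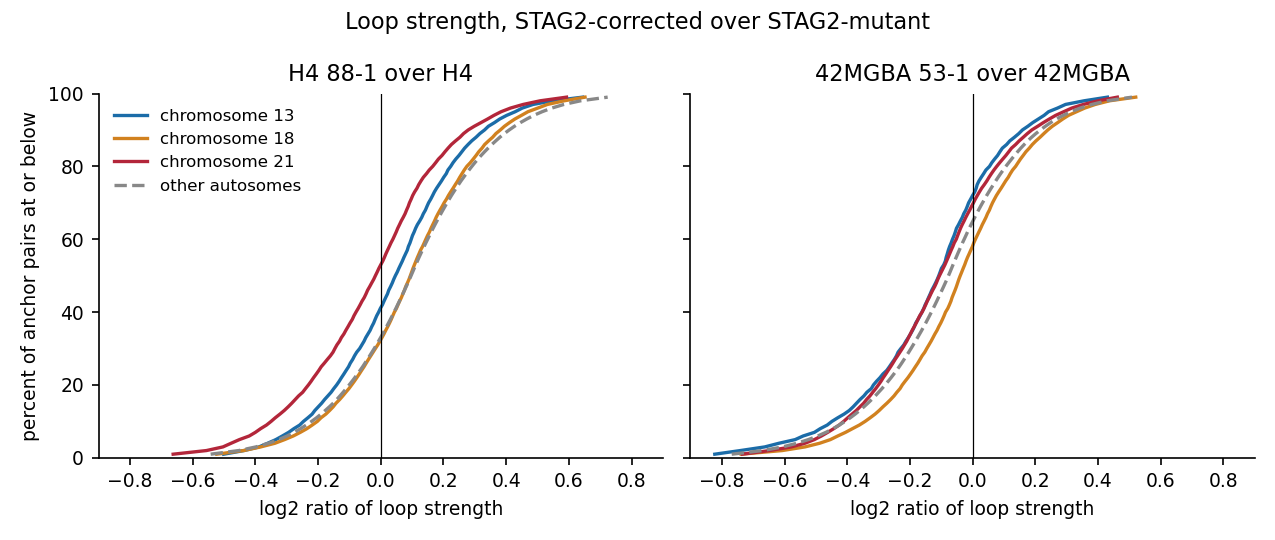
Percent of anchor pairs (vertical axis) with a log2 ratio of strength at or below a given value (horizontal axis), corrected over mutant, for chromosomes 13, 18 and 21 and for the other autosomes together, drawn from the first to the 99th percentile. In the H4 pair the chromosome 21 curve lies to the left of the rest, with a median of -0.02 against 0.10 on the other autosomes, and in the 42MGBA pair chromosome 18 lies to the right with a median of -0.04.

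Anchor pairs past 1.5-fold were counted in each direction. In the H4 pair, 53 anchor pairs of chromosome 13, 194 of chromosome 18 and 71 of chromosome 21 were at least 1.5-fold stronger in H4 88-1, or 1.56%, 2.01% and 1.11%, against 2.92% over all chromosomes. At least 1.5-fold stronger in H4 were 15, 64 and 106, or 0.441%, 0.662% and 1.66%, against 0.722% over all. Chromosome 21 thus had a smaller share of anchor pairs stronger after correction, and a larger share weaker, than the background. At least 1.5-fold stronger in 42MGBA 53-1 than in 42MGBA were 9, 56 and 19, or 0.338%, 0.615% and 0.187%, against 0.485%. In the opposite direction were 124, 207 and 295, or 4.66%, 2.27% and 2.91%, against 3.4%. Here chromosome 13 lay above the background and chromosomes 18 and 21 below it, so the higher share of weaker anchor pairs on chromosome 21 was seen in the H4 pair alone, a difference that was not tested. With the genome-wide shift removed, 29 and 40 anchor pairs of chromosome 13 were higher and lower in H4 88-1 (0.852% and 1.18%), 70 and 134 of chromosome 18 (0.724% and 1.39%) and 29 and 226 of chromosome 21 (0.454% and 3.54%), against 1.40% and 1.55% over the genome. In the 42MGBA pair these were 13 and 81 (0.488% and 3.04%), 103 and 136 (1.13% and 1.49%), and 61 and 181 (0.601% and 1.78%), against 0.993% and 2.07%.

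The study's methods call loops by a z-score on the merged 100000 strongest of both lines, with the cutoff given there. They do not give the form of the regression. It was taken here through the origin, and an intercept changed some counts, as given below. The z-score ranks loops within a pair of lists and takes no account of replicates. Over all chromosomes 2806 loops passed as stronger in H4 and 2510 in H4 88-1, then 3212 in 42MGBA and 2114 in 42MGBA 53-1. The study reports other numbers, so its calls were not reproduced. In the H4 pair, 123 of 2256 merged loops of chromosome 21 passed the cutoff as stronger in H4, or 5.45%, against 2.17% over all chromosomes. On chromosome 13 these were 11 of 1023, or 1.08%, and on chromosome 18 they were 50 of 2930, or 1.71%. Only 6 loops of chromosome 21 passed as stronger in H4 88-1, or 0.266%, with 9 on chromosome 13 and 28 on chromosome 18, against 1.94% over all. As stronger in 42MGBA than in 42MGBA 53-1, 21, 68 and 86 loops passed, or 3.62%, 2.49% and 2.36%, against 2.45%. As stronger in 42MGBA 53-1 were 3, 47 and 9, or 0.517%, 1.72% and 0.247%, against 1.61%.

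Many of these loops were neighbours. The 123 of chromosome 21 formed 20 groups when anchor pairs with both anchors within 10 kb of another were joined, and the 11 of chromosome 13 formed 1 group, all in the window from 85 to 90 Mb around SLITRK6. The 9 loops of chromosome 13 stronger in H4 88-1 also formed 1 group, in the window from 40 to 45 Mb. Those windows of chromosome 13 held 77 and 163 merged loops. Of the 123, 56 lay between 40 and 45 Mb, 29 between 25 and 30 Mb and 20 between 30 and 35 Mb. Merged loops there numbered 721, 143 and 505, so of these windows the share was highest from 25 to 30 Mb. In the 42MGBA pair the 86 loops of chromosome 21 formed 14 groups, and 33 of them lay between 40 and 45 Mb, among 1058 merged loops there. By median size, loops stronger in the STAG2-mutant line were the larger ones on each chromosome and in both pairs. Their median size was 889, 325 and 417 kb on chromosomes 13, 18 and 21 in the H4 pair, against 190, 282 and 387 kb for those stronger in H4 88-1. The 42MGBA pair had 311, 530.8 and 512 kb against 254, 224 and 116 kb. Some of these medians rest on very few groups. On chromosome 13 they came from 1 group on each side in the H4 pair, and from 8 groups against 1 in the 42MGBA pair. The 6 loops of chromosome 21 stronger in H4 88-1 formed 2 groups.

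The log2 ratio was mostly lower for longer loops on these chromosomes as on the others. In the H4 pair the median on chromosome 21 was 0.15 under 100 kb, 0.07 from 100 to 250 kb, -0.05 from 250 to 500 kb and -0.13 from 500 to 1000 kb, and was then -0.07 at 1000 kb and over. In the 3 middle classes it was the lowest of the 22 autosomes, and the other autosomes had 0.15, 0.10 and 0.04 there. Sizes were not matched within these classes, and the part of size in the low median of chromosome 21 was not tested. On chromosome 18 the H4 pair kept a median of 0.11 from 500 to 1000 kb and had -0.08 at 1000 kb and over. In the 42MGBA pair chromosome 13 had -0.08, -0.18 and -0.20 in the 3 middle classes, against -0.04, -0.10 and -0.16 on the other autosomes. The longest class of chromosome 18 in that pair had a median of -0.29 over 301 anchor pairs, of which 0.332% were above 0.

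**Figure D4:**
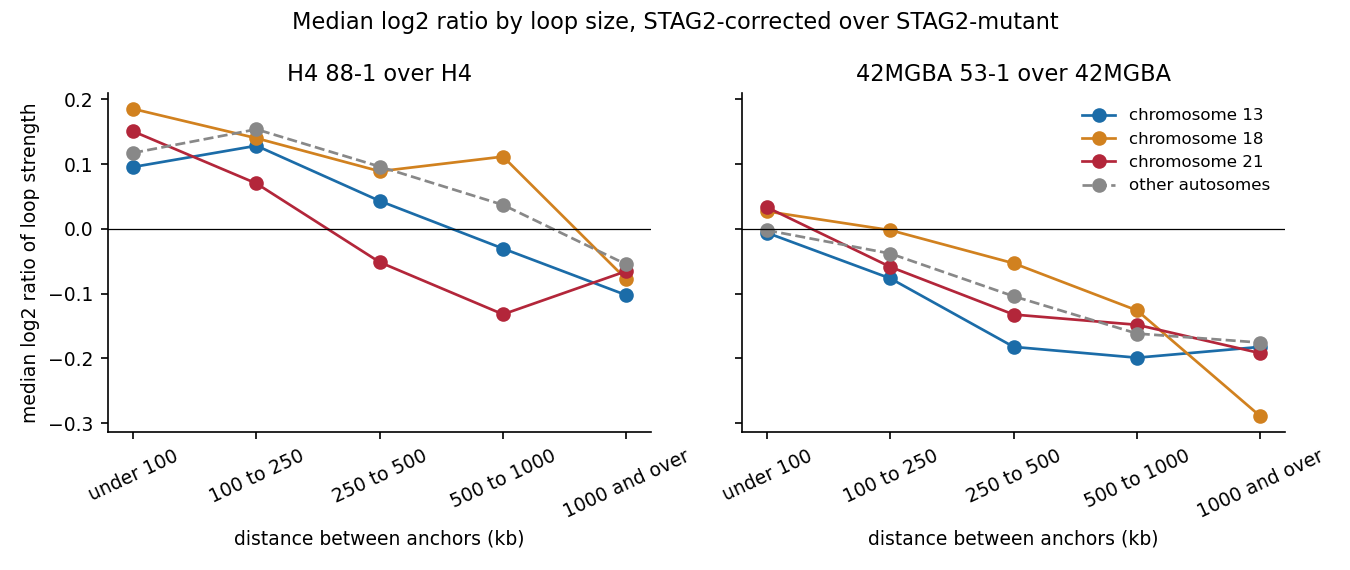
Median log2 ratio of strength, corrected over mutant (vertical axis), in 5 classes of loop size in kb (horizontal axis), for chromosomes 13, 18 and 21 and the other autosomes. In the H4 pair chromosome 21 runs below the rest from 100 to 1000 kb, reaching -0.13 against 0.04, and in the 42MGBA pair chromosome 18 drops to -0.29 in the longest class.

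The 4 lists were set beside each other. Anchor pairs listed in both STAG2-mutant lines and in neither corrected line numbered 141 on chromosome 13, 219 on chromosome 18 and 405 on chromosome 21, or 3.13%, 1.61% and 3.49% of all listed there, against 1.52% on the other autosomes. Those listed in both corrected lines alone numbered 41, 202 and 105, or 0.910%, 1.49% and 0.904%, against 1.35%. On chromosome 21 the first set had a median size of 516 kb and the last 179 kb. Anchor pairs in all 4 lists made up 14.96%, 20.4% and 22.6%, against 19.3%. Anchor pairs with a ratio in both pairs of lines numbered 1560 on chromosome 13, 5198 on chromosome 18 and 4917 on chromosome 21. The ratio was below 0 in both for 686 (43.97%), 1085 (20.9%) and 2343 (47.7%), against 24.2% on the other autosomes. These ratios include absent values set to the lowest of a list. They also keep the genome-wide shifts of 0.09 (H4 pair) and -0.08 (42MGBA pair), and no count was made with the shift removed. At least 1.5-fold lower in both pairs were 3 anchor pairs on chromosome 13, 7 on chromosome 18 and 22 on chromosome 21, or 0.192%, 0.135% and 0.447%, against 0.0963% on the other autosomes. At least 1.5-fold higher in both were 0, 3 and 0, against 59 of 198238 on the other autosomes, or 0.0298%.

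Along the chromosomes, 5 Mb windows with at least 200 anchor pairs in both pairs of lines were compared. The 6 windows of chromosome 21 differed widely. The window from 45 to 50 Mb, which has 58 coding genes and holds COL18A1, COL6A1 and COL6A2, had the highest median in both pairs, 0.19 (H4 pair) and 0.05 (42MGBA pair), and short loops with a median of 155 and 126 kb. The window from 25 to 30 Mb, with 8 coding genes and loops of 701 and 595 kb, had a median of -0.11, the lowest of the H4 pair, with -0.07 for 42MGBA. The lowest in the 42MGBA pair was the window from 40 to 45 Mb at -0.18, with -0.05 in the H4 pair. On chromosome 18, the lowest of 12 windows was 65 to 70 Mb at -0.06 in the H4 pair and 60 to 65 Mb at -0.21 in the 42MGBA pair, and the highest were 55 to 60 Mb at 0.16 and 40 to 45 Mb at 0.03. Only 4 windows of chromosome 13 held enough anchor pairs. They ran from 0.04 (30 to 35 Mb) to 0.09 (95 to 100 Mb) in the H4 pair and from -0.11 (30 to 35 Mb) to -0.02 (40 to 45 Mb) in the 42MGBA pair.

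Individual loops at the ends of each distribution were named by a fixed rule, the extremes of ratio among anchor pairs listed in both lines and of the sum of ratios among those listed in all 4, so their size is a description. On chromosome 21 the loop with the lowest sum of both ratios spanned 677 kb and held ADAMTS5 between its anchors. It joined chr21:28250615-28255479, 32.9 kb from ADAMTS1, to chr21:28932420-28937365 in the gene desert beyond ADAMTS5, 593 kb from that gene. ADAMTS1 and ADAMTS5 encode secreted proteases that cleave proteoglycans of the extracellular matrix. Strength was 10.96 in H4 but 4.80 in H4 88-1, and 12.6 in 42MGBA and 6.52 in 42MGBA 53-1. It was 2.28-fold and 1.94-fold weaker after correction, with both STAG2-mutant lines above both corrected lines. The adjacent anchor pair at chr21:28245691-28250614 and chr21:28927527-28932419 had the lowest ratio of the H4 pair, with 10.4 (H4), 4.52 (H4 88-1), 9.89 (42MGBA) and 6.85 (42MGBA 53-1). From the start of ADAMTS1 itself came the anchor pair with the largest summed strength of the chromosome, reaching 849 kb, with 14.9 (H4), 10.8 (H4 88-1), 25.3 (42MGBA) and 22.4 (42MGBA 53-1). This one was stronger in the 42MGBA lines than in the H4 lines, whatever their STAG2.

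RUNX1 encodes a transcription factor of blood development. A loop of 506 kb from its start site, at chr21:36261200-36265967, to one of its introns, at chr21:36771677-36776668, had the lowest ratio of chromosome 21 in the 42MGBA pair. Strength reached 16.4 in 42MGBA but 7.84 in 42MGBA 53-1, a 2.09-fold difference, while H4 and H4 88-1 had 11.9 and 11.8. The loop with the highest sum of ratios joined a segment 2.83 kb from POFUT2 at chr21:46710645-46715505 to an intron of COL18A1 at chr21:46860718-46865686, 145 kb away. COL18A1 encodes the basement membrane collagen from which endostatin is released. Strength was 5.84 (H4), 10.2 (H4 88-1), 7.66 (42MGBA) and 10.0 (42MGBA 53-1), so both corrected lines lay above both mutant lines.

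On chromosome 13 the loop with the lowest sum of ratios lay within the head-to-head genes COL4A1 and COL4A2, which encode chains of the type IV collagen of basement membranes. It joined an intron of COL4A1 at chr13:110870360-110875300 to an exon of COL4A2 at chr13:111099647-111104508, 224 kb away. Strength was 7.04 in H4 and 4.56 in H4 88-1, and 7.42 in 42MGBA and 4.33 in 42MGBA 53-1, which was 1.54-fold and 1.71-fold weaker after correction. The lowest ratio of the H4 pair belonged to a loop of 875 kb that ended at the start of SLITRK6, a neuronal transmembrane gene, at chr13:86365958-86370666. It had a strength of 7.66 in H4 but 4.51 in H4 88-1, and neither 42MGBA line listed it. The highest ratio of the H4 pair was at the start of TSC22D1, a leucine zipper gene induced by TGF-beta, with 4.58 in H4 and 10.2 in H4 88-1, again in neither 42MGBA list. The SPATA13 loop, which spanned 199 kb and ended at a start site of that guanine nucleotide exchange factor gene, had the highest sum of ratios, with 6.16 (H4), 8.39 (H4 88-1), 5.19 (42MGBA) and 7.35 (42MGBA 53-1). An anchor pair of 292 kb from an intron of DCLK1, a microtubule-associated kinase gene, to the CCDC169 gene had the lowest ratio of the 42MGBA pair. It had a strength of 10.8 in 42MGBA but 4.72 in 42MGBA 53-1, against 10.9 in H4 and 11.6 in H4 88-1.

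On chromosome 18 the lowest ratio of any named loop was found at SKOR2, a transcriptional corepressor gene of cerebellar neurons. The loop joined an exon of SKOR2 at chr18:44737932-44742884 to chr18:45273570-45278400, 56.9 kb from SMAD2, over 530.7 kb. Strength was 12.1 in 42MGBA and 4.64 in 42MGBA 53-1, a 2.61-fold difference, but 7.71 in H4 and 9.29 in H4 88-1, the opposite order. The loop with the lowest sum of ratios spanned 1017 kb, held ZNF521 between its anchors and ended 116 kb from SS18. Its strength was 8.37 (H4), 4.84 (H4 88-1), 9.23 (42MGBA) and 5.44 (42MGBA 53-1). Here both mutant lines were above both corrected lines. A loop of 391 kb beside PIEZO2, a mechanosensitive channel gene, had the highest sum, with 4.27 (H4), 5.60 (H4 88-1), 4.80 (42MGBA) and 8.57 (42MGBA 53-1). The largest summed strength among pairs of the chromosome listed in all 4 lines belonged to a loop of 381 kb. It ran from an exon of the myosin light chain gene MYL12B to an intron of DLGAP1. This loop barely differed, with a strength from 20.996 in H4 to 21.7 in 42MGBA 53-1.

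Some anchors took part in many pairs, and those with the most partners were singled out after their values had been seen. On chromosome 13 the segment at the start of TSC22D1, chr13:45010300-45015294, had 77 partners in H4, 63 in H4 88-1, and 27 and 31 in the 42MGBA lines (the parent first, here and below), while the median anchor of that chromosome had 3. On chromosome 18 a segment 11.3 kb from VAPA, chr18:9971360-9976292, had 11 and 12 partners in the H4 pair and 68 and 90 in the 42MGBA pair. At the start of RUNX1 the numbers were 34, 21, 82 and 89. A segment 28.0 kb from ADAMTS1 had 48 partners in H4 and 14 in H4 88-1, and 95 and 83 in the 42MGBA pair. Beside VAPA and at RUNX1 the numbers thus differed more between the H4 and 42MGBA lines than within a pair.

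Genes were read from 5 lists of 122 genes of these chromosomes, chosen by role. An anchor pair counted for a gene where an anchor lay within 3 kb of one of its start sites. Of the 122 genes, 54 had no anchor pair in any list, of which 27 of 43 on chromosome 13, 12 of 38 on chromosome 18 and 15 of 41 on chromosome 21, or 62.8%, 31.6% and 36.6%. Over all coding genes of these chromosomes the shares without one were 65.8%, 48.1% and 47.6%, and 48.3% on the other autosomes. Among the 54 were the glial lineage factors OLIG1 and OLIG2 and the calcium-binding glial protein gene S100B on chromosome 21, CDH2 and DCC on chromosome 18, and FLT3, SOX1 and EDNRB on chromosome 13. The median log2 ratio was computed for genes with at least 5 anchor pairs at a start site, and where a pair of medians is given the H4 pair comes first. Over all autosomal coding genes with as many, 74.6% had a median above 0 in the H4 pair and 32.3% did in the 42MGBA pair. On these 3 chromosomes the shares were 67.6% and 31.9%.

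In the list of 33 developmental transcription factors, 10 of 15 such genes had a median above 0 in the H4 pair and 4 of 13 in the 42MGBA pair, close to those shares. Over their anchor pairs the median was 0.09 and -0.09, and the H4 value became -0.01 once the genome-wide shift was removed. ERG and ETS2, which encode ETS-family factors, had -0.28 and -0.18 in the H4 pair and -0.19 and -0.15 in the 42MGBA pair. NFATC1, a calcium-regulated factor, had 0.41 and 0.06, with 4 anchor pairs listed in H4, 15 in H4 88-1, and 3 and 8 in the 42MGBA lines. BACH1, a heme-responsive repressor, was listed with 0 anchor pairs in H4 and 28 in H4 88-1, and with 5 and 0 in the 42MGBA pair.

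The list of 23 cell adhesion genes had the lowest median in the H4 pair, -0.12, with -0.09 in the 42MGBA pair, and its loops were long, with a median of 857 and 444 kb. Yet of 5 genes with enough anchor pairs 3 had a median above 0 in the H4 pair and 2 below, and in the 42MGBA pair 1 of 6 was above, and SLITRK6 alone supplied 62 of the 123 anchor pairs of the H4 pair. The desmosomal cadherin genes DSC3 and DSG2 had 0.14 and 0.20 in the H4 pair and no anchor pair in either 42MGBA list, and are named after their values were seen. SLITRK6 had 62 anchor pairs in H4, 34 in H4 88-1, and 22 and 0 in the 42MGBA lines, with medians of -0.30 and -0.36. NCAM2, a neural cell adhesion gene, had 12 in each STAG2-mutant line and 0 in each corrected line, with medians of -0.09 and -0.33 and a loop size near 1780 kb. CDH20, a cadherin gene, had 17, 16, 15 and 18 anchor pairs and medians of 0.02 and -0.14. Among its anchor pairs listed in both lines the medians were -0.05 and -0.20. Of this list 13 genes had no anchor pair.

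Among 15 genes of the extracellular matrix and proteoglycans, 8 had enough anchor pairs in the H4 pair, 4 above and 4 below 0, and 12 in the 42MGBA pair, 7 above and 5 below. COL4A2 had medians of -0.20 and -0.33, and COL4A1 of -0.07 and -0.31. COL4A1 counted under both the lowest and the highest of chromosome 13, since 5 genes of that chromosome qualified. POSTN, which encodes the matricellular protein periostin, had -0.03 and -0.21. COL18A1 had 0.33 and 0.15, with 10 anchor pairs in H4, 20 in H4 88-1, and 19 and 41 in the 42MGBA lines. CCBE1, a gene of lymphatic growth, had 0.33 and 7.3e-03, and COLEC12, a scavenger receptor gene, had 0.08 and -0.23. The type VI collagen gene COL6A1 had 0 anchor pairs in H4, 1 in H4 88-1, and 117 and 174 in the 42MGBA lines, and is named here after its values were seen. Over all anchor pairs of this list the median was -0.01 and 1.3e-03, and both signs changed when start sites within 10 kb were counted (0.04 and -0.01).

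Of 33 genes for receptors, ligands and signalling, 10 of 15 had a median above 0 in the H4 pair and 1 of 12 in the 42MGBA pair, the former close to the shares over coding genes. Their anchor pairs had a median of 0.07, or -0.03 with the genome-wide shift removed, and of -0.14. IRS2, an adaptor of the insulin receptor, had 0.37 and -0.16, SMAD7, an inhibitor of TGF-beta signalling, had 0.32 and -0.09, and KCNJ6, a potassium channel gene, had 0.35 and -0.22. At IRS2 only 1 of the 18 anchor pairs of the H4 pair was listed in both lines, and it had -0.14. The positive median there thus rests on absent values set to the lowest of a list. NETO1, an auxiliary subunit of glutamate receptors, had -0.03 and -0.23 with 18, 11, 5 and 0 anchor pairs. Of 18 genes of growth control and cell death, 1 of 5 was above 0 in the H4 pair and 2 of 4 in the 42MGBA pair, with medians of 4.9e-03 (-0.09 with the shift removed) and -0.09. BCL2, the inhibitor of apoptosis, had -0.01 and 9.2e-03 over 57 and 36 anchor pairs and is named as a member near 0. No gene of any list had a median past 0.3 with the same sign in both pairs.

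**Figure D5:**
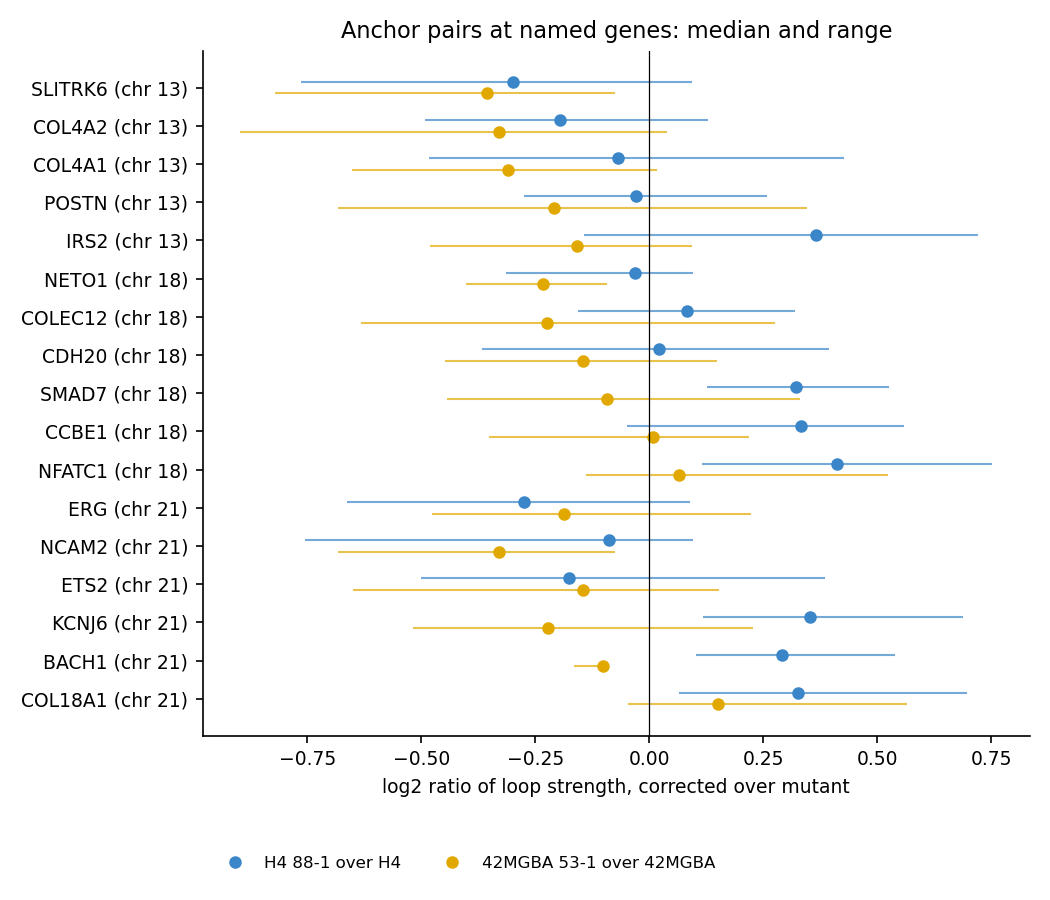
Log2 ratio of strength, corrected over mutant (horizontal axis), of anchor pairs at the start sites of the genes named by the rule. Points are medians and lines run from the lowest to the highest anchor pair, in blue for the H4 pair and in yellow for the 42MGBA pair. SLITRK6 has both points near -0.3, COL18A1 has both above 0, and KCNJ6 and IRS2 have 1 on each side of 0.

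The anchors were finally compared in features that the choice of chromosomes did not use. The CTCF core motif occurred in 15.7% of 1654 anchors of chromosome 13, 15.4% of 3237 of chromosome 18 and 16.6% of 2161 of chromosome 21, and in 16.04% of those of the other autosomes. In 5 kb windows tiling the same chromosomes the share was 9.79%, 10.95% and 12.3%, and 12.2% on the other autosomes. Anchors held 41.0%, 41.6% and 43.8% of G and C bases, against 38.5%, 39.8% and 40.8% in the windows. A start site of a coding gene lay within 3 kb of 18.6%, 19.6% and 21.6% of anchors, against 26.8% on the other autosomes. Of the windows, 8.77%, 12.6% and 15.5% held one within that distance, against 17.6%, so the share was lower on these chromosomes in the windows too.

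Among anchor pairs whose motifs lay on 1 strand at each anchor, convergent pairs outnumbered divergent ones on all 3 chromosomes in every line, and tandem pairs, with both motifs on the same strand, outnumbered convergent ones. In H4 there were 51, 105 and 83 tandem pairs on chromosomes 13, 18 and 21, with 39 convergent and 16 divergent on chromosome 13, 91 and 18 on chromosome 18, and 80 and 30 on chromosome 21. In 42MGBA 53-1 there were 31, 103 and 131 tandem pairs, with 19 and 2, 97 and 26, and 93 and 51. On the other autosomes 39.2% to 41.2% were convergent and 12.1% to 13.6% divergent, and the shares on chromosome 21 were 33.8% to 41.5% and 15.5% to 18.6%. Pairs with no motif at either anchor made up 61.8%, 67.3% and 67.3% in H4, so most listed pairs carried none of these letters. On chromosome 21 the ratio depended on start sites. Anchor pairs without one had a median of -0.05 (H4 pair) and -0.14 (42MGBA pair), and those with one at both anchors had 0.04 and -0.02. Their median sizes were 391 and 399 kb without and 195 and 189 kb with, so size moved with this difference and its part in it was not tested. On chromosome 18 the medians with and without start sites were 0.11 and 0.09 in the H4 pair and -0.04 and -0.04 in the 42MGBA pair.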

How the data were processed

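Hi-C libraries of 2 replicates of each line were made by the authors with the Arima Hi-C+ kit, aligned to hg19 with bowtie, assigned to pairs of 5 kb anchors, bias-corrected (HiCorr) and denoised (LoopEnhance, part of DeepLoop). What was deposited per line is a signal, here called strength, at its top 300000 anchor pairs, with replicates pooled. No counts per loop were used, so the depth behind a value is unknown and no interval was computed. Here the lists of a pair were joined with absent values at the lowest of that list, and log2 ratios were taken with pandas 2.3.3. The z-score came from a regression through the origin. Anchors were matched to GENCODE 44 and GRCh37, where every anchor start checked lay at a cut site. No test was possible. Genes named are the 3 lowest and 3 highest per chromosome by summed medians, and loops the extremes of ratio, strength and length. Members and lists were chosen with earlier results of these data known. RNA-seq samples were not analysed here. The functions were tested on simulated data.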

Additional observations from a re-analysis of the deposited data

Results flagged for a closer look

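In each of the following the H4 pair and the 42MGBA pair had values of opposite sign, with 1 pooled list a line, and no difference between the pairs was tested. The genome as a whole stood at 0.09 (H4 pair) and -0.08 (42MGBA pair). With that shift removed, 10 of the 22 values had the same sign in both pairs. These were chromosome 13 (-0.048 and -0.031), the lists other than extracellular matrix, COLEC12, CDH20, the windows of chromosome 13 from 30 and 95 Mb and both windows of chromosome 18. The median log2 ratio, corrected over mutant, was 0.047 (H4 pair) and -0.11 (42MGBA pair) on chromosome 13, and 0.094 and -0.039 on chromosome 18. At start sites of the listed genes it was 0.085 and -0.091 for developmental transcription factors, -0.012 and 1.3e-03 for extracellular matrix and proteoglycans, 0.069 and -0.14 for receptors, ligands and signalling, and 4.9e-03 and -0.09 for growth control and cell death.

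Among single genes it was 0.37 and -0.16 at IRS2, 0.082 and -0.23 at COLEC12, 0.020 and -0.14 at CDH20, 0.32 and -0.09 at SMAD7, 0.35 and -0.22 at KCNJ6, and 0.29 and -0.10 at BACH1. Among single loops it was 0.10 and -1.20 from DCLK1 to CCDC169, 0.95 and -0.24 from CCBE1 toward PMAIP1, 0.27 and -1.38 from SKOR2 toward SMAD2, 0.38 and -0.67 from ZNF407 toward ZNF516 over 1691 kb, and 0.98 and -0.16 for a loop of 392 kb that ended 123 kb from N6AMT1. Among 5 Mb windows it was 0.037 and -0.11 from 30 Mb, 0.046 and -0.022 from 40 Mb, and 0.094 and -0.086 from 95 Mb on chromosome 13. On chromosome 18 it was 0.088 and -0.21 from 60 Mb, and 0.16 and -8.9e-04 from 55 Mb. Some of the signs at single genes depended on absent values. Among anchor pairs listed in both lines CDH20 had -0.05 and -0.20, and IRS2 had -0.14, from 1 anchor pair, and -0.06. The signs stayed opposite at COLEC12 (0.08 and -0.22) and SMAD7 (0.39 and -0.29), and BACH1 had no such anchor pair.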

How the results depend on the processing

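No paired analysis was possible because each deposited list pools the replicates of a line, and for the same reason no replicate could be left out. Of the values recomputed under another setting, 168 stayed within their limits, 73 moved and 17 changed sign, and the cause was not tested. Joining neighbours within 10 kb gave, per 300000, 4175 (H4 88-1), 4082 (42MGBA) and 4375 (42MGBA 53-1) on chromosome 13, with a median size of 114 kb in the last, and 5279 and 4922 on chromosome 21 in the 42MGBA pair. The 100000 strongest gave 969 for chromosome 13 in 42MGBA 53-1. The chromosome 13 median of the H4 pair was -0.046 and -0.028 in the merged 100000 and 200000 strongest, -0.048 when centred on the genome, -0.049 when quantile scaled, and -0.043 relative to the same 50 kb size bin. In those merged sets chromosome 21 had -0.15 and -0.12 in the H4 pair, and chromosome 13 had -0.27 and -0.23 in the 42MGBA pair. Chromosome 18 had -3.1e-04 (centred) and -1.4e-03 (quantile) in the H4 pair, and 0.038 (centring), 0.042 (quantile) and 0.036 (size bins) in the 42MGBA pair.

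Counts are given as stronger and weaker after correction, for chromosomes 13, 18 and 21. At 2-fold they were 6 and 0, 2 and 0, and 1 and 6 in the H4 pair, and 0 and 4, 0 and 25, and 0 and 19 in the 42MGBA pair. The shares were 0.176% and 0, 0.0207% and 0, and 0.0157% and 0.0940% against 0.0809% and 0.0168% over the genome, and for weaker ones in the 42MGBA pair 0.150%, 0.275% and 0.187% against 0.196%. Centred on the genome, they were 29 and 40, 70 and 134, and 29 and 226 in the H4 pair, with 81 weaker, 103 and 136, and 61 and 181 in the 42MGBA pair. Among anchor pairs listed in both lines, 20, 110 and 42 were stronger and 58 of chromosome 21 weaker in the H4 pair, and 5, 35 and 10 stronger and 71, 95 and 190 weaker in the 42MGBA pair. By z-score in the merged 200000, they were 14 and 38, 97 and 142, and 32 and 265 in the H4 pair, and 14 and 63, 123 and 113, and 70 and 213 in the 42MGBA pair. With an intercept the counts were 7 weaker on chromosome 13, 74 stronger on chromosome 18, and 11 and 73 on chromosome 21 in the H4 pair, and 41 and 51 on chromosome 21 in the 42MGBA pair. By z-score of the log2 ratio, 12 were stronger on chromosome 21 in the H4 pair, and 9 on chromosome 13 and 20 on chromosome 21 in the 42MGBA pair. Within size bins 3 and 32 of chromosome 13 were weaker in the H4 and 42MGBA pairs. For pairs listed in both lines and for these z-score settings the share over all chromosomes was not computed. Whether those counts lie above or below the share over the genome was therefore not assessed.

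Centring turned the H4 medians of developmental transcription factors to -9.5e-03, of receptors to -0.025 and of growth control to -0.090, and the last was -0.012 among pairs listed in both lines. The extracellular matrix list had 0.044 and -9.4e-03 with start sites within 10 kb, and -4.1e-03 in the 42MGBA pair among those listed in both. The longer CTCF motif was found in 2.00%, 1.76% and 2.31% of anchors, and the form with fewer fixed letters in 31.1%, 33.6% and 38.5%.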
